A study of Mus musculus with 19 samples.

Results

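Erythroid and platelet genes were followed across fat and pancreatic lymph nodes (PLNs) of NOD mice through 7 genes: Ppbp, Pf4, Itga2b and Gp9 of platelets, and Slc4a1, Alas2 and Bpgm of red cells. All probe sets that the platform annotates to 1 of these genes were taken, 11 of the 45037 probe sets on the array and 7 of the 18193 genes it represents. Ppbp, Pf4, Itga2b, Gp9 and Alas2 had 1 probe set each, whereas Slc4a1 and Bpgm had 3 each. The genes were chosen by their values in fat of diabetic, normal and treated mice on these same arrays, and Ppbp is also in the study's own list of top fat genes. Fat differences of these genes that involve NOR or DIA arrays are therefore given as descriptions, without a test. Adjusted p-values printed for genes of other lists in fat come from the limma fit over all probe sets. PM against AAT in fat is described in the same way, since the choice used the treated arrays. The genes were not chosen on the PLN arrays, and the PLN comparisons were tested.

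Red cells and platelets carry no nucleus, and the RNA they hold was made in their precursors. Young red cells, the reticulocytes, still hold RNA for haemoglobin, for haem synthesis and for the proteins of the red cell membrane. Platelets hold RNA for the chemokines and adhesion receptors made in megakaryocytes. In a piece of tissue, both reach the RNA extract with the blood in its vessels. In these bulk samples, fewer cells of a type and less RNA per cell cannot be told apart.

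The study asked which transcripts change at the onset of diabetes and move back under treatments that restore normal glucose. The arrays were made from female NOD (NOD/LtJx) mice, a strain that develops autoimmune diabetes spontaneously. In fat there were 3 arrays of new onset diabetic mice treated with Power Mix (PM). PM combines a long-lived interleukin 2 fusion protein, an antagonist interleukin 15 fusion protein and rapamycin. Another 2 fat arrays were of new onset diabetic mice treated with alpha1 antitrypsin (AAT). The rest were 2 of new onset diabetic mice (DIA) and 2 of normoglycemic mice (NOR). Whether the DIA mice received insulin is not given for these arrays. In PLNs there were 4 AAT, 2 DIA and 4 NOR arrays, and PM was not represented. The methods name epididymal fat for tissue taken in the insulin signalling experiments and do not tie that depot to the arrays. The ages of the mice and the doses and times of AAT and PM are not given for these arrays in the sources used here, nor whether 2 arrays of 1 group were made from 2 mice, so that p-values measure only the spread between these samples, which may be technical.

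Each array gives a signal (intensity) per probe set on a linear scale, and signals of different probe sets are not compared here. Differences are of mean log2 signals, relative to the median of all probe sets in the same comparison, which lay between −0.13 and 0.17 in fat and between −0.72 and −0.11 in PLNs. Fold values are of the signals as measured. The 8 adipocyte markers summed to between 193040 and 387860 in the fat arrays, and the 10 lymphocyte markers to between 24433 and 54536 in the PLN arrays, against 1038 to 3229.5 in fat. The DIA arrays of fat stood apart in how far 3' exceeded 5' signal for actin, which is read as RNA quality. That ratio was 3.35 to 6.32 in PM, 9.08 and 5.87 in AAT, 15.2 and 15.5 in DIA, and 3.63 and 4.30 in NOR. The same ratio for Gapdh was 0.90 to 1.08 in PM, 2.31 and 0.79 in AAT, 2.46 and 4.63 in DIA, and 0.91 and 0.95 in NOR. Both ratios were highest in DIA, so RNA quality and diabetes cannot be told apart in fat. A fit with the actin ratio as a covariate does not separate them. Endothelial markers were low in 2 fat arrays, with sums over 10 genes of 3647 in NOR 1 and 3078 in PM 2, against 6663 to 35358 in the others.

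Ppbp encodes pro-platelet basic protein, the precursor of neutrophil-attracting chemokines that platelets store in their alpha granules. Its signals in fat were 660.3, 1766 and 861 in PM and 666 and 573 in AAT. In DIA they were 174 and 31.0, and in NOR 2237 and 1362. Both DIA arrays lay below every other fat array, both AAT arrays lay below both NOR arrays, and the PM array 2 lay between the NOR arrays. The difference between DIA and NOR was −4.47 (log2, SE 0.71, n = 2 each), with the signal 23.8-fold lower in DIA. It was −3.31 without DIA array 2, −5.67 without DIA array 1 and −3.14 with the actin ratio as a covariate. Relative to DIA, Ppbp was higher by 3.12 (SE 0.71) in AAT and by 3.62 (SE 0.65) in PM, and both of these comparisons share the DIA arrays with the first. Against NOR it differed by −0.82 (SE 0.65) in PM and by −1.37 (SE 0.71) in AAT. The DIA array 2, at 31.0, was the only fat array with a Ppbp signal under its own 20th percentile of all probe sets.

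Pf4 encodes platelet factor 4, a heparin-binding chemokine of the same granules, and its gene follows Ppbp on chromosome 5 with 3917 bases between their starts. Its fat signals were 1483, 2491 and 1695 in PM and 1504 and 1806 in AAT. They were 1405 and 2032 in DIA, against 3476 and 1634 in NOR. All 4 groups overlapped. Pf4 differed by −0.39 (SE 0.41) between DIA and NOR, by 0.01 (SE 0.41) between AAT and DIA and by −0.02 (SE 0.37) between PM and DIA. The 2 neighbouring chemokine genes thus had unlike differences on the same arrays, and their promoters are shown for that reason. The 250 bases before each start are from RefSeq (GRCm38.p6, plus strand, chr5:90768268-90768517 for Ppbp and chr5:90772185-90772434 for Pf4), in lower case because neither holds the GATA letters GATAA or TTATC.
Ppbp: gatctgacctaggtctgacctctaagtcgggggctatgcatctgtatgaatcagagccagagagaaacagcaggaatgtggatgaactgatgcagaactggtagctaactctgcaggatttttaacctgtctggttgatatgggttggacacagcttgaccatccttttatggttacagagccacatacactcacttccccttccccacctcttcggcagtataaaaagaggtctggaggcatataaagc
Pf4: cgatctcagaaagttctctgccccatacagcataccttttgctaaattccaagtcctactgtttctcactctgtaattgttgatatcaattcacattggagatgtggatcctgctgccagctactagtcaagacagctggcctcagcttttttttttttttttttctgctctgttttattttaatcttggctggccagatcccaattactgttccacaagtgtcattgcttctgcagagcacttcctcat

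Itga2b encodes the alpha chain of the platelet fibrinogen receptor, which megakaryocytes and early blood precursors also make. In fat its signals were 568, 1451 and 524 in PM, 460.3 and 666 in AAT, 580.2 and 636 in DIA, and 1001 and 577 in NOR. The DIA arrays lay within the range of the NOR and PM arrays. Its differences were −0.22 (SE 0.51) for DIA against NOR, −0.09 (SE 0.51) for AAT against DIA and 0.17 (SE 0.47) for PM against DIA. The sign of DIA against NOR was not stable for Pf4 and Itga2b, which were at 0.03 and 0.05 without NOR array 1, and at 0.48 and 2.00 with the actin covariate. Ppbp, Pf4 and Itga2b were each highest in the same pair of fat arrays, PM 2 and NOR 1, which are the arrays with the low endothelial sums; the part of that tissue make-up in their values was not tested.

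Gp9 encodes a small subunit of the platelet receptor for von Willebrand factor. Its fat signals were 61.4, 264 and 271 in PM, 120.3 and 100.5 in AAT, 51.1 and 159 in DIA, and 302 and 257 in NOR. Both DIA arrays lay below both NOR arrays, while DIA overlapped with AAT and with PM. The difference was −1.52 (SE 0.90) for DIA against NOR, 0.33 (SE 0.90) for AAT against DIA and 0.71 (SE 0.83) for PM against DIA. Without DIA array 1 the last 2 were −0.53 and −0.13.

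**Figure D1:**
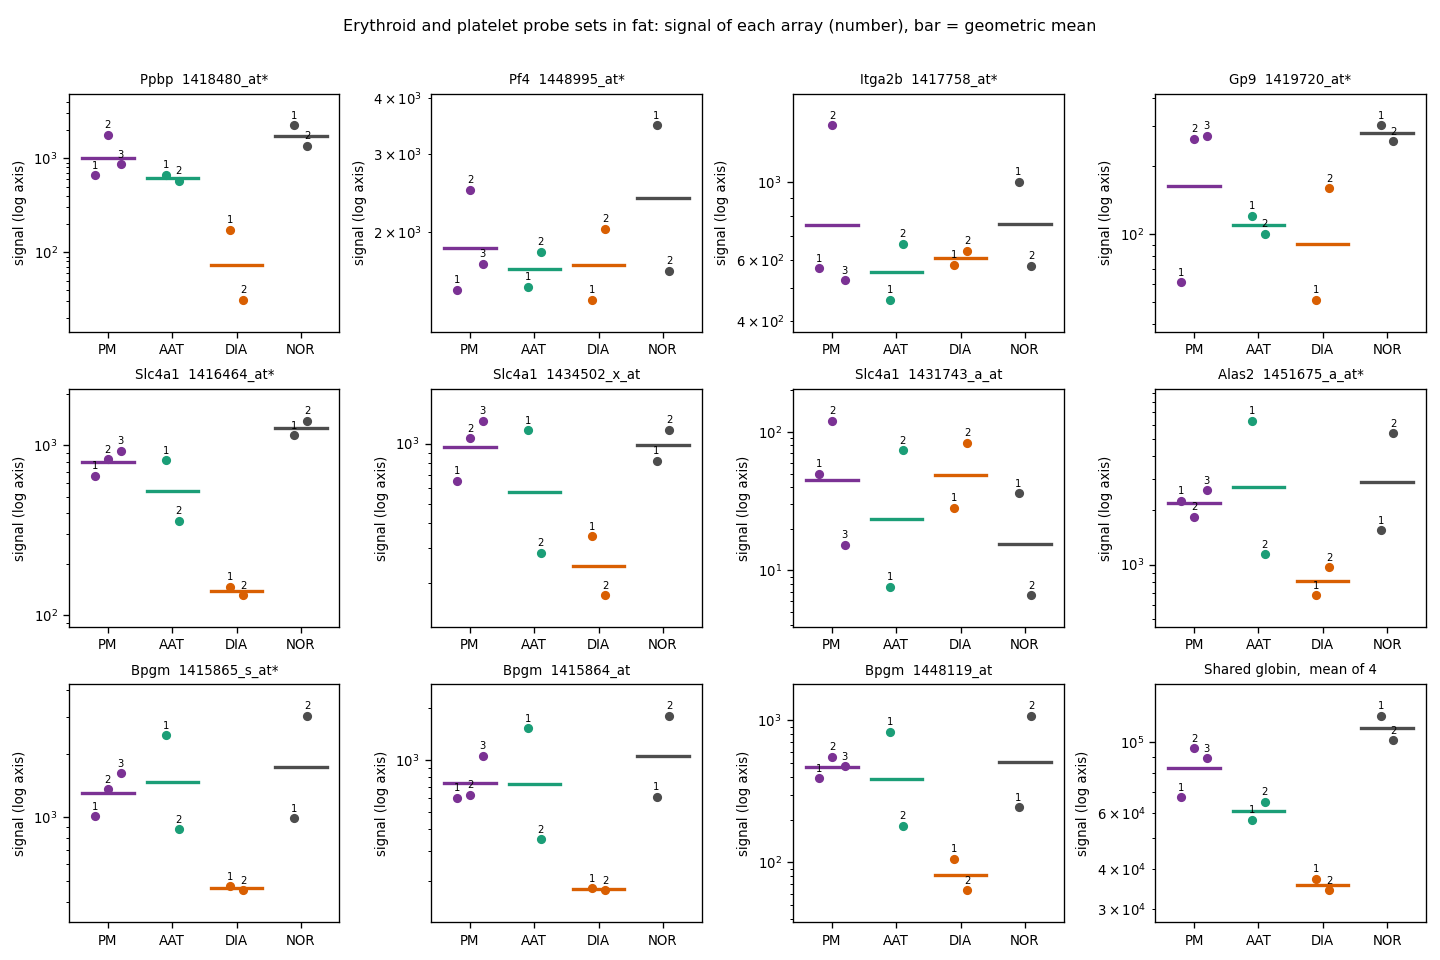
Signal of each erythroid and platelet probe set in fat, on a log axis, by group (PM 3 arrays, AAT, DIA and NOR 2 each). Points are arrays with their number, bars are geometric means, stars mark the probe set that stands for a gene, and the last panel is the geometric mean of 4 globin probe sets. The DIA points lie below the NOR points in 8 of the 11 panels of the 7 genes, with Ppbp at 174 and 31.0 in DIA.

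Slc4a1 encodes band 3, the anion exchanger that anchors the red cell skeleton to its membrane. By its probe set of highest mean (1416464_at), fat signals were 659, 828 and 929.8 in PM and 815 and 359 in AAT. They were 148 and 131 in DIA, against 1146 and 1397 in NOR. Both DIA arrays lay below all other fat arrays, and all PM and AAT arrays lay below both NOR arrays. The difference between DIA and NOR was −3.08 (SE 0.45), 9.09-fold lower in DIA, and Slc4a1 was higher than in DIA by 2.00 (SE 0.45) in AAT and by 2.37 (SE 0.41) in PM. The second probe set (1434502_x_at) had 649, 1064 and 1304 in PM, 1165 and 283 in AAT, 343 and 174 in DIA, and 823 and 1169 in NOR. Its AAT array 2 fell between the DIA arrays, so that AAT and DIA overlapped, and its differences were −1.90 (SE 0.63) for DIA against NOR and 1.84 (SE 0.57) for PM against DIA. The third (1431743_a_at) was under the 20th percentile of its array in 6 of 9 fat arrays, overlapped in all groups and had the opposite sign (1.76, SE 1.48, for DIA against NOR).

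Alas2 encodes the erythroid enzyme that begins haem synthesis. Its fat signals were 2264, 1840.4 and 2591 in PM and 6304 and 1141 in AAT. They were 676 and 968 in DIA, against 1551 and 5371 in NOR. Both DIA arrays were below every other fat array, and within AAT and within NOR 1 array was several-fold above the other. The difference was −1.73 (SE 0.71) for DIA against NOR, 1.78 (SE 0.71) for AAT against DIA and 1.30 (SE 0.65) for PM against DIA. Between AAT and NOR it was 0.03 (SE 0.71), and between −1.39 and 1.38 with 1 array left out.

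Bpgm encodes bisphosphoglycerate mutase, which makes the small molecule that lowers the oxygen affinity of haemoglobin. Its probe set of highest mean (1415865_s_at) gave fat signals of 1013, 1356 and 1617 in PM and 2447 and 880.0 in AAT. It gave 473 and 451 in DIA, against 992 and 3023 in NOR. Of the other 2 probe sets, 1415864_at had 182 and 177 in DIA, against 612 and 1798 in NOR, and 1448119_at had 105 and 63.4 in DIA, against 245 and 1077 in NOR. In all 3 probe sets both DIA arrays lay below every PM, AAT and NOR array. The differences between DIA and NOR were −1.80 (SE 0.56), −2.44 (SE 0.68) and −2.54 (SE 0.80), those between AAT and DIA 1.72, 2.07 and 2.30, and those between PM and DIA 1.35, 1.89 and 2.37.

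Alas2 and Bpgm had their highest fat signals in the same pair of arrays, AAT 1 and NOR 2, whose endothelial sums (34022 and 35358) were the 2 highest; the part of tissue make-up in these values was not tested. The 250 bases before their starts are shown because both genes had the same 2 highest and 2 lowest fat arrays (RefSeq, GRCm38.p6, plus strand, chrX:150547167-150547416 for Alas2 and chr6:34476106-34476355 for Bpgm). Capitals mark the letters GATAA, or TTATC on the other strand, the core that the erythroid factor GATA1 reads.
Alas2: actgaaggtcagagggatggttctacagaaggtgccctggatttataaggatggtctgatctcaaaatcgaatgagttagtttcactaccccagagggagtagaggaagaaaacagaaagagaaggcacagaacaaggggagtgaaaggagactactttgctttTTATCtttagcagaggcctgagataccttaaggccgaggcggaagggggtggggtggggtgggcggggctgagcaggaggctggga
Bpgm: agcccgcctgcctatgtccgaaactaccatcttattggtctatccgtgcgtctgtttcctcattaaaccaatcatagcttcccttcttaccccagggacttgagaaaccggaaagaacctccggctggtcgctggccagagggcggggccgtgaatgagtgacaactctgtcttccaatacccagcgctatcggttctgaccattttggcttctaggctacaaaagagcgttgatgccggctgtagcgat
Of the 6 genes with a promoter in the RefSeq table (all but Slc4a1), Alas2 and Gp9 each held these letters 1 time in the 250 bases, and 22.6% of 32851 promoters of that length hold them. The letters CACCC or GGGTG stood 3 times in Alas2, 1 time in Gp9 and in none of the other 4, and 52% of promoters hold them. GGAAG or CTTCC, read by ETS factors, stood in all 6, and 64.1% of promoters hold it. A match describes the sequence and does not show binding.

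In the comparison of DIA with NOR in fat, every array of DIA lay below every array of NOR for 8 of the 11 probe sets, and this held for 23.2% of all probe sets. By more than 2-fold, 5 of the 7 genes (Ppbp, Slc4a1, Bpgm, Alas2 and Gp9) were lower in DIA, and 15.9% of all probe sets were lower by that much. Their median difference was −1.73 over the 7 genes. It was −0.79 without NOR array 2 and −2.73 without NOR array 1, and −3.14 with the actin ratio as a covariate. That ratio was highest in the DIA arrays, so the covariate does not separate RNA quality from diabetes. At an adjusted p under 0.05 (limma), 0% of probe sets were called in each of the 6 fat comparisons, with 4036 at an unadjusted p under 0.05 for DIA against NOR.

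Under treatment, 6 of the 11 probe sets were higher in every AAT array than in every DIA array (14.9% of all probe sets), and 7 of 11 in every PM array (18.3%). By more than 2-fold, 4 of the 7 genes were higher in AAT than in DIA (9.99% of all probe sets) and 4 in PM than in DIA (16.3%), and in both cases these were Ppbp, Slc4a1, Alas2 and Bpgm. The median difference from DIA was 1.72 in AAT and 1.30 in PM. The AAT value rested on 1 array: it was 0.34 without AAT array 1 and 2.56 without AAT array 2. Against NOR, 3 of 7 genes (Ppbp, Slc4a1 and Gp9) were more than 2-fold lower in AAT (15.2% of all probe sets) and 0 in PM (7.5%). Every AAT array lay below every NOR array for 3 of 11 probe sets (18%), and the median difference from NOR was −0.40 in AAT and −0.43 in PM. The value in AAT was −1.39 without AAT array 1, −1.01 without NOR array 1 and −1.01 with the actin covariate, and that in PM was −0.76 without NOR array 1.

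The 2 treatments were also set side by side, without a test of the 7 genes. The differences between PM and AAT in fat ran from −0.45 (Alas2, SE 0.65) to 0.53 (Ppbp, SE 0.65) over the 7 genes, with a median of 0.28. All 11 probe sets overlapped between PM and AAT. The share of all probe sets that overlapped in this comparison was not counted, so nothing particular to these genes is read from it.

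Haemoglobin itself is measured on the array mostly by probe sets annotated to several adult globin genes at once, with 1 annotated to 4 beta-globin genes and 3 annotated to 2 alpha-globin genes, so that no single globin gene can be named from them. These 4 probe sets were picked after their values were seen, and no test is given. In fat their signals lay between 57430 and 111800 in PM, between 45220 and 80860 in AAT, between 25370 and 50610 in DIA and between 91400 and 145900 in NOR. The probe set of the beta-globin genes (1417184_s_at) had 57430, 87530 and 83400 in PM, 51000 and 60810 in AAT, 31370 and 25370 in DIA, and 114700 and 92410 in NOR. In each of the 4, both DIA arrays lay below every other fat array and both AAT arrays below both NOR arrays. Of all probe sets, 23.2% had every DIA array below every NOR array, and 18% had every AAT array below every NOR array. The 3 alpha-globin probe sets name the same 2 genes and are not separate observations. Their differences between DIA and NOR were between −1.82 and −1.23. A probe set annotated to Hbb-b2 alone, an adult beta-globin gene, was 1427866_x_at, and whether it reads only that gene was not tested. It had 745.5, 433 and 728 in PM, 1616 and 167 in AAT, 199.9 and 33.6 in DIA, and 1027 and 2384 in NOR. Its difference between DIA and NOR was −4.15 (SE 1.00), while a second probe set that stands for the gene in the lists differed by 0.36 (SE 1.08).

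**Figure D2:**
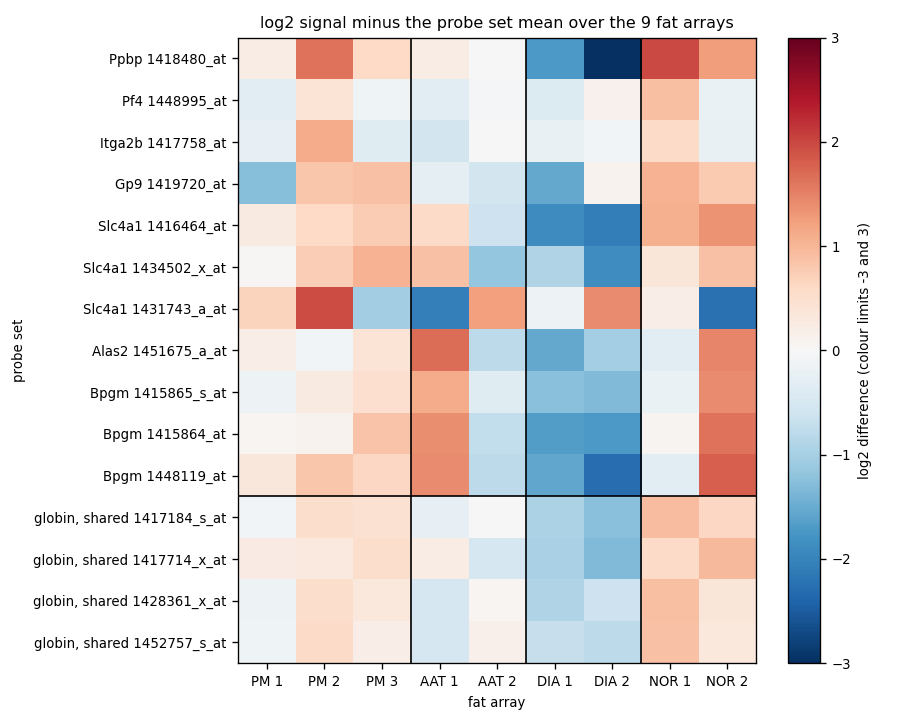
log2 signal of each probe set (rows) in each of the 9 fat arrays (columns), minus the mean of the probe set over the 9 arrays, with 4 globin probe sets below the line. Blue is below and red above that mean, with colours limited to −3 and 3. DIA 1 and DIA 2 are blue for Slc4a1 (2 probe sets), Alas2, Bpgm and the globins, while Pf4 and Itga2b are near white there.

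Over the 9 fat arrays, log2 signals of Ppbp correlated with the mean of the 4 globin probe sets at r = 0.93 (Spearman 0.93), those of Slc4a1 (1416464_at) at 0.92 (Spearman 0.92), of Gp9 at 0.70 (0.70), of Bpgm (1415865_s_at) at 0.66 (0.55), of Pf4 at 0.52 (0.43), of Alas2 at 0.48 (0.42) and of Itga2b at 0.44 (0.27). The other probe sets of Bpgm were at 0.69 and 0.68, and those of Slc4a1 at 0.76 (1434502_x_at) and −0.19 (1431743_a_at). The arrays share the group structure that the genes were chosen on, so these values describe the arrays and are given without a p. Among 11519 genes ranked by Pearson correlation over the same 9 arrays, the 3 most like Alas2 were Fech, the enzyme that inserts iron into haem (0.97), Mkrn1 (0.96) and Bpgm (0.96). The 3 most like Bpgm were Cd24a, a surface protein of red cell and lymphocyte precursors in mice (0.99), Mkrn1 (0.98) and Alas2 (0.95). Each gene was ranked by its probe set of highest correlation. For Mkrn1 that was 1455504_a_at, with 372 and 424 in DIA, against 1012 and 2406 in NOR. Its probe set in the lists did not share this, at 2801 and 2397 in DIA, against 1995 and 2778 in NOR. For Ppbp they were Tmod3 (0.98), Ipo5 and Khdrbs1, and for Slc4a1 Mynn (0.97), Adipor1 and Laptm4a. Those of Pf4 were Wdr61 (0.95), Syt1 and Il17a, those of Itga2b D430042O09Rik (0.98), Pip5k1a and Car13, and those of Gp9 Memo1 (0.96), Slc35a2 and Tbc1d19.

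Fech had fat signals of 5131, 5037 and 5218 in PM, 8465 and 4203 in AAT, 3692 and 3375 in DIA, and 4642 and 7117 in NOR. The DIA arrays were the lowest, which largely follows from the choice of Fech by its likeness to Alas2 over these arrays. The difference of Fech between DIA and NOR was −0.60 (SE 0.37), smaller than that of Alas2, and is given without a test.

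Other genes linked to red cells or platelets were set beside the 7 through 5 lists, 80 genes in all. Some of them, such as Alas1, Itgb1 and Aqp1, are also made in other cells. Counts and medians over the lists therefore do not describe the 2 lineages alone. Of the 80 genes, 42 lay below and 38 above the median of all probe sets in DIA against NOR in fat, with a median of −0.07, and 0 were called. Named from each list are the 2 genes of highest fat mean and the 2 of lowest DIA minus NOR difference. The low values named are therefore the extremes of their lists. The 14 platelet surface receptors had a median of −0.46, with 10 below. Among them Clec1b, a receptor that activates platelets, was at −3.26 (SE 1.15, adjusted p = 0.456) and Cd9 at −1.54 (SE 0.36, adjusted p = 0.388), while Itgb1, an integrin chain of many cell types, was at 0.20 (SE 0.45). The 19 genes of platelet granules, cytoskeleton and signalling had a median of 0.01, with 9 below. Rgs18, a regulator of G protein signalling in platelets, was at −1.36 (SE 0.61) and Gng11 at −0.58 (SE 0.41). Cavin2 and Sparc, the 2 with the highest mean, were at 0.23 (SE 0.49) and 0.12 (SE 0.87).

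The 13 measured genes of haemoglobin and haem synthesis had a median of 0.09, with 6 below the median of all probe sets. Globin genes entered this list only through probe sets that name 1 gene alone. Hba-a1, for example, had 46.0 and 133 in DIA, against 259 and 82.3 in NOR. The 4 shared globin probe sets, all lower in DIA than in NOR, are not in the list, so its median does not describe the bulk of the globin signal. Urod, a later enzyme of the haem pathway, was at 0.55 (SE 0.35), Alas1, the form of the first haem enzyme used outside red cells, at −1.15 (SE 0.49), and Hbb-bh1, an embryonic globin, at −1.86 (SE 1.27). The 15 genes of the red cell membrane and skeleton had a median of 0.24, with 6 below and 9 above. Epb42, a protein that binds band 3, was at −2.64 (SE 1.09) and the spectrin chain Sptb at −1.26 (SE 0.54), whereas Aqp1, a water channel of red cells and also of endothelium, was at 1.21 (SE 1.36) and Slc2a1, a glucose transporter, at 0.60 (SE 1.31). The 19 erythroid regulators and enzymes had a median of −0.15, with 11 below. Nfe2 was at −1.85 (SE 1.38) and the carbonic anhydrase Car2 at −1.75 (SE 0.47, adjusted p = 0.417 by limma). Xpo7 was at 0.73 (SE 0.46) and Pgam1 at 0.11 (SE 0.30).

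**Figure D3:**
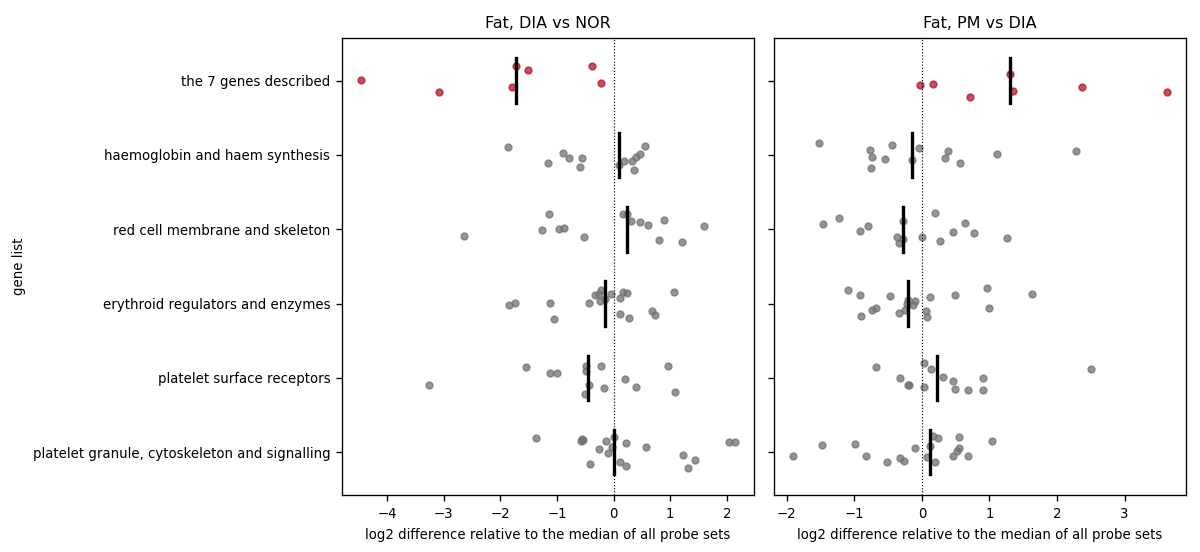
log2 differences in fat for DIA against NOR (left) and PM against DIA (right), relative to the median of all probe sets, with 1 point per gene and a bar at the list median. The 7 genes described, which were chosen by fat values, have medians of −1.73 and 1.30, and the 5 other lists have medians between −0.46 and 0.24 (left) and between −0.28 and 0.23 (right).

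Receptors and paralogs of the platelet chemokines (8 genes) had a median of −0.26 in DIA against NOR, with 6 below. The genes named from this list follow the same rule. Cxcl15, which lies on the same stretch of chromosome 5, was at −1.01 (SE 0.79), Cxcl2 at −0.96 (SE 1.01), Cxcl1 at −0.40 (SE 0.39) and the heparan sulphate carrier Sdc4 at 0.63 (SE 0.46). Of other cell types, the 10 macrophage markers lay the other way in DIA fat: 9 of 10 were above the median (median 0.99, 0 called), and their sums were 13891 and 29036 in DIA, against 8143 and 7711 in NOR. The 10 endothelial markers had 9 above the median (median 0.82) but sums of 22249 and 15126 in DIA within the 3647 and 35358 of NOR. The 8 adipocyte markers summed to 193040 and 341000 in DIA, against 387860 and 308600 in NOR, with 6 of 8 below the median (median −0.41). At most 1 gene of each of these 3 lists was under the 20th percentile in any fat array. The part of these cell types in the lower erythroid and platelet signals was not tested.

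In PLNs, 0 of the 11 probe sets were called in any of the 3 comparisons by limma, and 0 reached an unadjusted p under 0.05. The smallest adjusted p was 0.613 for DIA against NOR (0.0555% of all probe sets called), 0.371 for AAT against DIA (0.0999%) and 0.21 for AAT against NOR (3.74%). The median differences over the 7 genes were 0.40, 0.39 and 1.19 relative to the median of all probe sets, which itself was −0.72 in AAT against NOR. The p-values test the changes as measured, before that median is taken off. With 1 array left out the medians ran from 0.096 to 0.79, from 0.058 to 0.87 and from 0.70 to 1.48. The first was −0.12 with the replicate block, and the third was 0.40 with means over each gene's probe sets. The 3' to 5' signal ratio of Gapdh, read as RNA quality, was 7.43, 20.6, 8.30 and 25.0 in AAT, 10.8 and 10.02 in DIA, and 5.55 to 8.01 in NOR. Both DIA arrays lay above all NOR arrays, AAT 2 and AAT 4 were the highest, and AAT 1 lay within NOR. The actin ratio overlapped between groups, at 1.67, 1.23, 1.29 and 2.01 in AAT, 0.88 and 1.10 in DIA, and 0.94 to 2.31 in NOR. The part of RNA quality in the PLN values was not tested.

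Ppbp was low in PLNs, under the 20th percentile of its array in 6 of 10 arrays. Its signals were 201, 67.3, 23.8 and 12.5 in AAT, 45.3 and 11.0 in DIA, and 23.4, 7.69, 9.46 and 149 in NOR. The groups overlapped, and the difference between DIA and NOR was 0.10 (SE 1.47, 95% interval −2.78 to 2.99, adjusted p = 0.999, limma). That interval uses a normal quantile of the SE and is narrower than one from the t distribution of the fit. Pf4 was above that percentile in all 10, at 961, 674, 350.2 and 400.3 in AAT, 664 and 278 in DIA, and 303, 202, 306 and 567 in NOR. Pf4 was the gene most like Ppbp over the 10 PLN arrays (Pearson 0.90, Spearman 0.88, among 10597 genes), both being highest in AAT 1. In AAT against NOR, Pf4 differed by 1.50 (SE 0.51, adjusted p = 0.346) and Ppbp by 1.72 (SE 1.20, adjusted p = 0.625).

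Itga2b ranged from 13.7 in AAT 4 to 389 in DIA 1 without separating any groups. Gp9 had 18.8, 11.7, 48.2 and 34.4 in AAT, 26.3 and 36.2 in DIA, and 195, 24.4, 81.2 and 289.8 in NOR. Its AAT arrays were mostly below those of NOR, with an overlap at NOR 2, and the difference of −1.34 (SE 1.01) had the smallest adjusted p of the 11 probe sets in AAT against NOR, at 0.21.

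Slc4a1 (1416464_at) had 348, 166, 186 and 32.2 in AAT, 914 and 162 in DIA, and 181, 132, 55.2 and 172 in NOR. DIA 1 was the highest and DIA 2 lay among the NOR arrays, with a difference of 1.76 (SE 0.98, adjusted p = 0.613). By 1434502_x_at, the 195 and 163 of DIA lay above all NOR arrays, at 43.9, 105.5, 68.9 and 105.2, the only 1 of the 11 probe sets without overlap in that comparison (8.99% of all probe sets), with a difference of 1.34 (SE 1.14, adjusted p = 0.787). The third, 1431743_a_at, had its lowest signal of all 10 arrays in DIA 2 (4.07) and its highest in DIA 1 (843).

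Alas2 had 83.0, 243, 35.0 and 22.7 in AAT, 10.4 and 499 in DIA, and 33.2, 168, 64.0 and 12.2 in NOR. Bpgm (1415865_s_at) had 1743.5, 6203, 1695 and 2609 in AAT, 1375 and 3134 in DIA, and 2206, 1365.5, 1884 and 1456 in NOR. In both genes DIA 2 and AAT 2 were the 2 highest arrays, and DIA 1 was at or near the bottom. The Bpgm probe set 1415864_at was also highest in these 2 arrays (1711 in AAT 2 and 1207 in DIA 2), whereas 1448119_at was highest in DIA 1 (491). The differences in AAT against NOR were 1.19 (SE 1.21, adjusted p = 0.831 by limma) for Alas2 and 1.36 (SE 0.42, adjusted p = 0.356) for Bpgm (1415865_s_at). The geometric mean of Bpgm was 1732 in NOR fat and 1695 in NOR PLNs. That of Alas2 was 2886 and 45.8, and the median of the globin probe sets 106900 and 240.2. Bpgm thus did not share the low PLN signals of the other 2. Which cells gave its PLN signal was not tested, and the PLN medians count it.

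The globin probe sets set the same 2 PLN arrays apart. The beta-globin probe set had 584.8, 10590, 1491 and 342 in AAT, 1114 and 15340 in DIA, and 154, 638, 369 and 201.5 in NOR. Over the 4 probe sets, signals were 5943 to 11140 in AAT 2 and 4685 to 15340 in DIA 2, against 20.1 to 638 in the 4 NOR arrays. Both DIA arrays lay above all NOR arrays in 4 of 4 probe sets, where 8.99% of all probe sets did so, and all AAT arrays in 2 of 4, where 3.54% did. Hbb-b2, by the probe set that stands for it in the lists (1427865_at), was 1 of 2 genes among the 80 called in AAT against NOR. It had 2321, 5654, 1451 and 1044 in AAT, 767 and 5856 in DIA, and 161, 315, 352 and 188 in NOR, and it rose in AAT by 3.86 (SE 0.58, adjusted p = 0.0121, limma), higher in 4 of 4 AAT arrays than in any NOR array. Its call was lost with eBayes without trend (adjusted p = 0.0774), with the mean over its probe sets (0.114) and without NOR array 1 (0.0607), and adjusted p ranged from 0.000659 to 0.114 over the alternatives. The other gene called was Thbs1, a platelet granule protein that other cells make too, at 23.5, 80.5, 9.36 and 6.24 in AAT and 505.5, 173, 138 and 169 in NOR, a fall of 2.82 (SE 0.96, adjusted p = 0.0452) with 3 of the AAT signals under the 20th percentile of their arrays. That call was lost under most alternatives, with adjusted p between 0.0548 and 0.173 after quantile normalization, median centring, a floor, eBayes without trend or means over probe sets, and between 0.0826 and 0.177 without any 1 of the 4 NOR arrays or AAT array 3 or 4. Its difference was −1.66 with the floor and −1.22 with means over probe sets. The 2 calls were a smaller share of the 80 genes than the 3.74% over all probe sets. Of other cell types, all 8 adipocyte markers lay above the median in AAT against NOR (median 1.83, 2 called by limma), with sums of 9235 to 38561 in AAT, 3203 to 5144 in DIA and 4173 to 7907 in NOR. Of the 10 macrophage markers 8 lay above it (median 1.35, 1 called), with sums of 57632 to 108880 in AAT, 52600 to 67899 in DIA and 36019 to 59918 in NOR. The part of these cell types was not tested. Acinar markers of the pancreas, which the nodes adjoin, summed to 293080 over 8 genes in AAT 3 and to 15022 in DIA 1, against 486 to 2816 in the other PLN arrays. The geometric means of the 4 globin probe sets were 1507 in AAT 3 and 998 in DIA 1, below AAT 2 (8173) and DIA 2 (7942) and above the other 6 PLN arrays (129 to 589), and the part of acinar tissue was not tested.

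**Figure D4:**
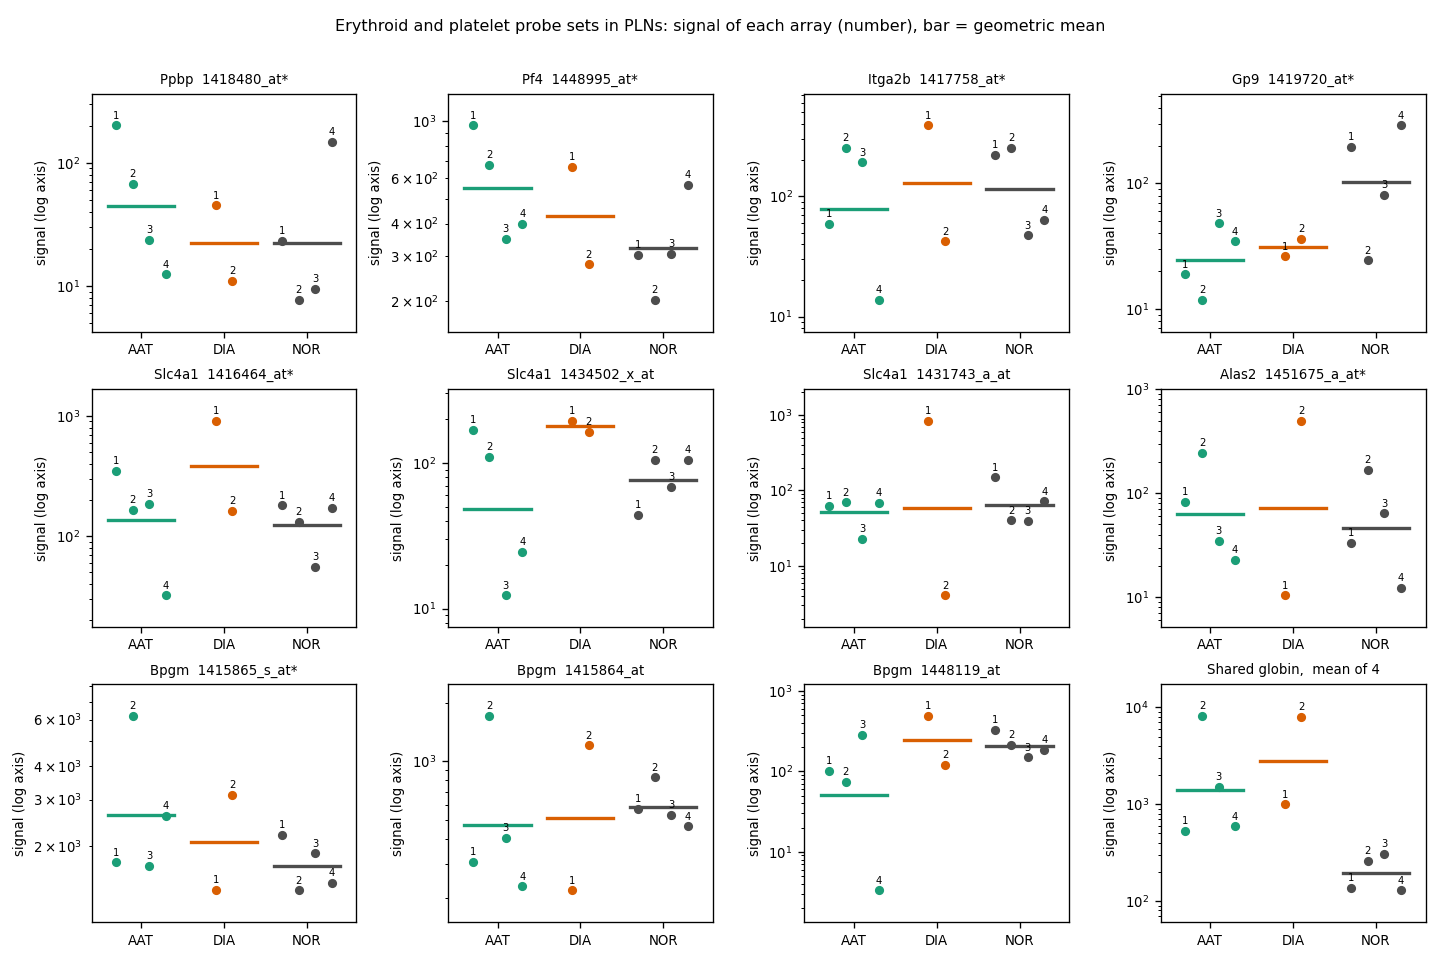
Signal of each erythroid and platelet probe set in PLNs, on a log axis, by group (AAT 4 arrays, DIA 2, NOR 4). Points are arrays with their number, bars are geometric means, stars mark the probe set that stands for a gene, and the last panel is the geometric mean of 4 globin probe sets. Alas2, Bpgm (1415865_s_at) and the globins are highest in AAT 2 and DIA 2, with Alas2 at 243 and 499 there.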

How the data were processed

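RNA of fat and PLNs from female NOD mice was hybridised to 19 Affymetrix Mouse 430 2.0 arrays. The deposited values are intensities on a linear scale, which the authors made with MAS5, scaled per array (version not given in the sources used here). MAS5 is named in the submitters' processing notes, whereas the methods name RMA with rank products, which were not used. Signals under 1 were set to 1 and log2 was taken, without further normalization. Of 45037 probe sets (64 controls left out), 34945 name 1 gene, 932 several and 9160 none. A gene was represented by its probe set of highest mean that names it alone. In R 4.3.3, limma 3.58.1 fitted 1 model per tissue over all its arrays (lmFit, and eBayes with a trend), and two-sided p-values were adjusted (Benjamini-Hochberg) over all 45037, with calls at an adjusted p under 0.05. The fit was tested on simulated data. Groups came from the labels, and 2 to 4 arrays per group limit the precision. Named were all probe sets of the 7 genes, from each other erythroid, platelet or chemokine list up to 2 genes of highest fat mean and 2 of lowest fat DIA minus NOR difference, and the 3 genes most like each member in fat; lists of other cell types are given by counts and sums; the globin probe sets, and values given for other cell types, were chosen after their values were seen. PM against AAT in fat was planned as a test and is given as a description. The genes and lists were chosen with earlier results of these data known. Promoters were searched with Python 3.11.15, and figures were drawn with matplotlib 3.10.9. Alternatives were other normalizations, a floor, a pseudocount of 32, a filter, eBayes without trend, only the groups compared, a replicate block, means over probe sets of a gene, an actin ratio covariate and arrays left out.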

Additional observations from a re-analysis of the deposited data

Results flagged for a closer look

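Of 22 groups of 4 arrays checked for an array far from the rest, 1 held one, and about 1 in 20 would by chance. In PLNs under AAT, Slc4a1 by its probe set 1431743_a_at had a signal of 23.1 in array 3, against 62.9 to 69.8 in the other 3, a gap of 0.906 of the range of the group on the log2 scale. Slc4a1 by 1434502_x_at differed in direction between tissues: in fat every DIA array lay below every NOR array, and in PLNs every DIA array lay above every NOR array. The DIA minus NOR difference in fat minus that in PLNs was -3.24 (log2), a difference that was not tested.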

How the results depend on the processing

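The 11 probe sets had 0 calls in the 3 PLN comparisons under every alternative run. Median differences of the 7 genes kept their sign in fat DIA against NOR, AAT against DIA and PM against DIA. Leaving out 1 array moved the median to between -2.73 and -0.79 (DIA against NOR), 0.34 and 2.56 (AAT against DIA), -1.39 and -0.40 (AAT against NOR) and -0.13 and 0.72 (PM against AAT). With the actin ratio as a covariate it was -3.14 (DIA against NOR), 2.35 (AAT against DIA), 2.49 (PM against DIA) and -1.01 (AAT against NOR). Without fat NOR 1 and PM 2 it was -2.73 (DIA against NOR), -1.01 (AAT against NOR), -0.91 (PM against NOR) and -0.13 (PM against AAT). In PLNs it ran from 0.096 to 0.79 (DIA against NOR), 0.058 to 0.87 (AAT against DIA) and 0.70 to 1.48 (AAT against NOR) without 1 array. Averaging each gene's probe sets gave 0.74 in AAT against DIA. The causes were not tested.

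In the 5 fat comparisons with NOR or DIA, Ppbp kept its sign under every alternative run, and each of the other 6 genes changed sign in at least 1 comparison. Leaving out 1 array gave, among others, -0.74 to 0.03 (Pf4) and -0.41 to 0.054 (Itga2b) in DIA against NOR, -0.53 to 1.23 (Gp9) in AAT against DIA, -0.13 to 1.62 (Gp9) in PM against DIA, -1.39 to 1.38 (Alas2) in AAT against NOR and -1.32 to 0.53 (Bpgm) in PM against NOR.

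In the other comparisons, differences of single genes changed sign as follows. In PM against AAT in fat, Pf4 was at 0.23 after quantile normalization, 0.061 with the floor, 0.023 with the pseudocount, 0.053 with the replicate block and 0.0084 with means over probe sets. With the actin covariate Itga2b was at -0.36, Alas2 at 0.63 and Bpgm at 0.30, and Itga2b was at -0.13 without fat NOR 1 and PM 2. Leaving out 1 array gave -0.17 to 0.056 (Pf4), -0.13 to 0.54 (Itga2b), -0.32 to 1.17 (Slc4a1), -1.80 to 0.97 (Alas2) and -1.20 to 0.58 (Bpgm). In PLN DIA against NOR, Ppbp was at -0.34 with the floor, -0.075 with the pseudocount, -0.16 with the block and -0.72 without PLN DIA 1 and AAT 3. Itga2b was at -0.51 with the block, -1.32 with the actin covariate and -1.13 without that pair, and Alas2 at -0.12 with the block and -0.43 with the covariate. Leaving out 1 array gave -0.72 to 0.98 (Ppbp), -1.13 to 1.55 (Itga2b), -2.36 to 3.75 (Alas2) and -0.52 to 1.19 (Bpgm). In PLN AAT against DIA, Itga2b was at 0.039 with the floor, 0.65 with the block, 1.32 with the covariate and 0.79 without the pair. Alas2 was at -0.58 with the floor, -0.16 with the pseudocount and -2.39 without the pair, Gp9 at -0.48 with the block, -1.04 with the covariate and -0.58 without the pair, and Bpgm at -0.16 with means over probe sets. Leaving out 1 array gave -1.33 to 1.21 (Itga2b), -0.25 to 0.87 (Gp9), -1.78 to 0.058 (Slc4a1) and -2.68 to 3.57 (Alas2). In PLN AAT against NOR, Itga2b was at -0.22 without the pair and at -0.44 to 0.94 without 1 array.

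The replicate block changed no call of the 11 probe sets and left medians of -1.73 (DIA against NOR), 1.72 (AAT against DIA) and 1.20 (PM against DIA) in fat, with -0.12 in PLN DIA against NOR. The numbers were not taken as pairs, since not every correlation was over 0.1: deviations of same-numbered arrays had correlations between -0.261 and 0.291 in the 12 fat pairs, and between -0.041 and 0.281 in the 8 PLN pairs, where 6 were over 0.1, those of arrays 1 and 2, and the pairs of arrays 3 and 4 were not. In a group of 2 arrays the deviations mirror each other. Fat pairs between such groups therefore repeat 1 value for arrays 1 and 2 (0.0552, -0.259 and -0.0665). They are not separate observations and cannot settle whether the fat arrays were paired.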
